A study of Homo sapiens with 21 samples.

Results

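The kinesin genes were described as targets of HNRNPK in MDA-MB-231 cells. Every PAR-CLIP cluster was taken whose gene name had the form of a kinesin symbol, that is KIF or KIFC followed by a number and, at most, a letter and a digit. This gave 2029 of 778762 clusters, in 36 of the 18322 genes that had a cluster in any library. Of the 43 kinesin symbols of this form in GENCODE, the 7 without a cluster under their own name were KIF2B, KIF4B, KIF5C, KIF12, KIF19, KIF26A and KIF28P. MDA-MB-231 is a widely used human cell line of triple-negative breast cancer. The cells compared were the parental line and its CRISPR-Cas9 KRT19 knockout (KRT19 KO), made to lack the intermediate filament protein keratin 19. Both were fed the photoreactive nucleoside 4SU, irradiated with UV light and fractionated before HNRNPK was immunoprecipitated. There were 4 libraries, from the cytoplasm and the nucleus of each cell line, with 1 library per condition. Whether the KRT19 KO cells were 1 clone was not given in the sources used here, and 17 further samples, from RNA-seq, were not analysed here.

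Kinesins are motor proteins that use ATP to move along microtubules or to take their ends apart. Transport kinesins carry vesicles, organelles, membrane proteins and RNA granules towards the cell periphery, whereas mitotic kinesins build the spindle, align chromosomes and complete cytokinesis. HNRNPK is a mainly nuclear RNA-binding protein that moves between nucleus and cytoplasm and contacts C-rich stretches of RNA through its KH domains. In PAR-CLIP, a crosslinked 4SU shows up as a T-to-C change in the sequence, and overlapping reads with such changes are joined into a cluster. A cluster therefore marks a position of contact, and its reads depend on the amount of the RNA as well as on binding. In these bulk libraries the amount of RNA and the binding cannot be told apart, and the number of cells of a kind and the RNA per cell cannot either.

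The sites with the most reads among those found in at least 3 libraries are shown first, as examples of intron and 3′UTR sites that are described with their genes below. Each sequence is 30 bases of the reported strand, written 5′ to 3′, from GRCh37 (hg19). It lies within the site's cluster with the most reads and holds the position with the strongest signal, often at an edge. Longer sites are therefore shown in part only. Capitals mark runs of at least 3 C, the core of the C-rich element.
KIF18B intron, chr17:43019509-43019538, minus strand: cacattctctcattaatctCCCCatCCCCt
KIF18A intron, chr11:28096329-28096358, minus strand: aacaaCCCattcctctcaaactaccaCCCC
KIF18B intron, chr17:43023781-43023810, minus strand: ttctccaatcttctCCCtattctatttctt
KIF2A intron, chr5:61616962-61616991, plus strand: attccatttcatttcatttatccatccatt
KIF5B 3′UTR, chr10:32299911-32299940, minus strand: ccagtcagtactgtattttaaaatCCCttg
KIF1B 3′UTR, chr1:10366472-10366501, plus strand: aactattcctttctatacacaatttatttt
KIF5B 3′UTR, chr10:32298869-32298898, minus strand: tttaaaatataaatttatttatttattttt
KIF11 3′UTR, chr10:94414303-94414332, plus strand: actttctCCCtttttatttttcaccaaacc
The site with the most reads of all kinesin sites was found in the cytoplasmic libraries only, and was added after its values were seen.
KIF5B 3′UTR, chr10:32299406-32299435, minus strand: ttaaaaatatatataggtcaattttggtct
The KIF18B and KIF18A windows held 33.3% to 50% C, whereas the KIF5B windows held 0% to 23.3% C. The 3′UTR window of KIF11 also held 33.3% C, the intron window of KIF2A 26.7% and the 3′UTR window of KIF1B 20%. No coding site was found in at least 3 libraries, so none is shown.

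Reads in clusters numbered 5551612 in the parental cytoplasm, 6216226 in the KRT19 KO cytoplasm, 3537577 in the parental nucleus and 3252800 in the KRT19 KO nucleus, and values are given in this order below. The share of unique reads was 30.9%, 45.6%, 20.0% and 19.0%, where unique reads are distinct sequences. Before clusters were called, the authors had collapsed identical sequences together with their UMIs, so equal reads that remain may be separate molecules or may be copies. All clusters in the files had at least 5 reads and 1 position with a T-to-C change, so a gene or site without a cluster did not meet these limits, which is not the same as 0 reads. All intervals are 95% intervals (Wilson for shares, exact Clopper-Pearson for ratios) and cover counting error only, because reads that are copies of 1 molecule are not independent. With 1 library per condition, no difference between conditions had a replicate check and no p-value was computed. KRT19 itself had 7, 5, 0 and 0 reads, too few to check the genotype. The fractions were checked with the nuclear RNAs MALAT1 and NEAT1. NEAT1 had 226.4, 203.8, 789 and 1092 RPM (reads scaled to the total of cluster reads in the library), higher in both nuclear libraries, but MALAT1 had 1229, 842, 888 and 548. Intronic reads, which come from unspliced RNA or excised introns, made up 50.6% and 26.0% of the gene reads in the cytoplasmic libraries, and their part in the kinesin values was not tested.

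The family 14 kinesins KIFC1 and KIFC3 stood apart. KIFC1, which crosslinks and focuses spindle microtubules, had 12 clusters with 486 reads in the parental cytoplasm and no cluster in the other libraries. KIFC3, a minus-end-directed motor, had 18 clusters with 442 reads in the parental cytoplasm and likewise none elsewhere. KIFC1 (chromosome 6, 33359600 to 33377673) lay in a stretch of 561 kb, from 32948608 to 33509304, in which the parental cytoplasmic library held 58 clusters of 14 genes and none of the other libraries held a cluster. KIFC3 (chromosome 16, 57792129 to 57896957) had 23, 0, 1 and 1 clusters on either strand, whereas the stretch of 1 Mb before the gene held 90, 81, 99 and 93. Conversely, clusters on sequences outside the chromosomes numbered 0, 232, 269 and 221. The parental cytoplasmic library thus differed from the other libraries in the parts of the genome that carried clusters. Several of the results that KIFC1 and KIFC3 touch are given without them as well. Where no such value is given, both genes are included.

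HNRNPK clusters were spread over the kinesin family and lay mostly in introns. Kinesin clusters numbered 569, 433, 541 and 486 in 30, 29, 31 and 28 genes, and their reads made up 0.232% (0.228 to 0.236), 0.178% (0.175 to 0.181), 0.273% (0.268 to 0.279) and 0.233% (0.228 to 0.239) of each library. Without KIFC1 and KIFC3 the parental cytoplasm had 539 clusters with a share of 0.216%, which remained above that in the KRT19 KO cytoplasm. The number of libraries with a cluster was counted for kinesins only, not for all genes. Of the 36 genes, 27 had a cluster in all 4 libraries, KIF9 in 2 libraries and 8 in a single library. These 8 were KIFC1, KIFC3 and the thinly covered KIF1A, KIF5A, KIF17, KIF21B, KIF25 and KIFC2, which had between 5 and 20 reads each. The 10 genes with the most clusters were KIF18A, KIF13A, KIF21A, KIF2A, KIF20B, KIF4A, KIF11, KIF5B, KIF1B and KIF14, and together they held 1300 clusters, 64.1% of all kinesin clusters. Per length the order was different. Over the 4 libraries KIF18B held 34.2 clusters per 10 kb, KIF18A 23.5 and KIF5B 21.3, whereas KIF13A, a long gene of 228 kb, held 6.92 and KIF26B, of 554 kb, held 0.180. The latter was the lowest among genes with at least 100 reads.

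**Figure D1:**
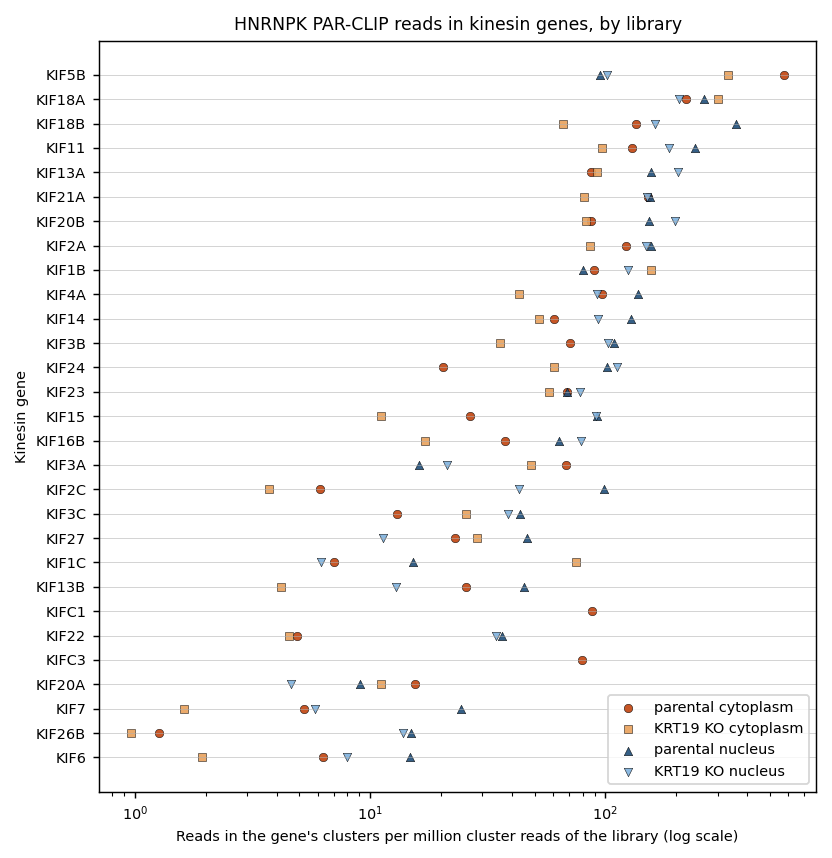
Reads in the clusters of each kinesin gene, in RPM (reads scaled to the library total, log scale), with 1 point per library, for the 27 genes with a cluster in all 4 libraries and for KIFC1 and KIFC3. KIF5B lies furthest right in both cytoplasmic libraries, at 574 and 332 RPM, and KIFC1 and KIFC3 carry a single point each, from the parental cytoplasm.

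Intronic clusters made up 83.3% (80.0 to 86.1), 79.7% (75.6 to 83.2), 92.8% (90.3 to 94.7) and 92.6% (89.9 to 94.6) of kinesin clusters. Over the clusters of all genes the shares were lower in every library, at 74.4%, 63.4%, 83.7% and 82.1%. Clusters in 3′UTRs made up 9.49% (7.35 to 12.2), 12.2% (9.48 to 15.7), 2.59% (1.55 to 4.30) and 4.32% (2.84 to 6.52) of kinesin clusters, against 13%, 20.4%, 4.80% and 5.37% of the clusters of all genes. Without KIFC1 and KIFC3 the parental cytoplasmic shares were 83.1% for introns and 9.83% for 3′UTRs. By reads the fractions differed more, since 3′UTR clusters held 33.6% and 41.6% of the kinesin reads in the cytoplasm and 2.90% and 3.76% in the nucleus. Coding clusters were few, at 29, 25, 18 and 9, with 261, 475, 187 and 141 reads.

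**Figure D2:**
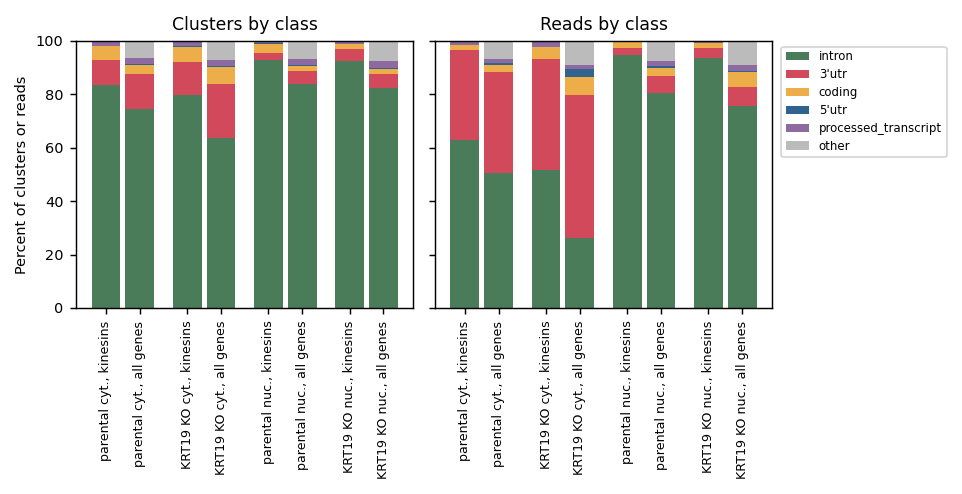
Stacked bars of the annotation class given by the authors to each cluster, as a percent of clusters (left) and of reads (right), for kinesins and for all genes in each library. The 3′UTR part of the kinesin reads is 33.6% and 41.6% in the cytoplasmic libraries and 2.90% and 3.76% in the nuclear libraries.

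Relative to the library, kinesin 3′UTRs had 781, 741, 79.2 and 87.6 RPM. The cytoplasmic share was 9.86 times (8.74 to 11.2) the nuclear share in parental cells and 8.46 times (7.50 to 9.57) in KRT19 KO cells, against 5.92 and 8.73 times for the 3′UTR reads of all genes. Kinesin introns had 1461, 920, 2584 and 2181 RPM, and the cytoplasmic share was 0.565 (0.549 to 0.583) and 0.422 (0.407 to 0.437) times the nuclear share. The intron reads of all genes were at 0.632 and 0.386 times, so kinesins lay below them in parental and above them in KRT19 KO cells. In the KRT19 KO cytoplasm the share of kinesin 3′UTR reads was 0.949 times (0.911 to 0.990) that in the parental cytoplasm, whereas the 3′UTR reads of all genes were at 1.498 times. This kinesin value rested on KIF5B: without it the ratio was 1.44 (1.36 to 1.53). KIF5B also weighed on the ratios between fractions, which without it were 4.91 (4.26 to 5.67) for parental cells and 5.30 (4.68 to 6.03) for KRT19 KO cells.

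Transport kinesins held most of the 3′UTR reads. In the families 1, 2 and 3, 61.6% and 69.8% of the cytoplasmic reads lay in 3′UTRs, compared with 5.59% and 5.77% of the nuclear reads. This value rested on KIF5B, without which the shares were 35.3% (33.5 to 37.2), 56.5% (54.8 to 58.2), 3.86% (3.15 to 4.72) and 5.999% (5.08 to 7.07), against 37.8%, 53.6%, 6.42% and 6.89% of the reads of all genes. KIF14, a mitotic member of family 3, is counted here with its family. In the mitotic families 5, 6, 8, 10 and 12 the shares were 19.9%, 23.7%, 2.66% and 3.17%. A 3′UTR cluster was found in 18 of the 36 genes, and the matching share over all genes was not computed.

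KIF5B (chromosome 10, 32297943 to 32345353, minus strand), the ubiquitous heavy chain of conventional kinesin, carries mitochondria, vesicles and RNA granules. Its 3′UTR held 2632, 1860, 59 and 14 reads, and its introns held 524, 153, 249 and 318. The 3′UTR reads were high in both cytoplasmic libraries and low in both nuclear ones, a ratio of shares of 28.4 (21.97 to 37.45) for parental cells and 69.5 (41.3 to 127) for KRT19 KO cells. KIF5B alone made up 60.7% of the kinesin 3′UTR reads in the parental cytoplasm and 40.4% in the KRT19 KO cytoplasm, but 21.1% and 4.91% in the nuclei. In the cytoplasm its 3′UTR share in KRT19 KO cells was 0.631 times (0.594 to 0.670) the parental share, and its intron share 0.261 times (0.216 to 0.313). The nuclear intron share was 1.39 times (1.17 to 1.65) the parental value. The site with the most reads, at 32299396 to 32299435, had 1230 and 743 reads in the cytoplasmic libraries and no cluster in the nuclear ones. The neighbouring site at 32299911 to 32299989 had 793, 782 and 30 reads and no cluster in the KRT19 KO nucleus, and the AU-rich site at 32298862 to 32298898 had 459, 175 and 11 and again none there. The 30 bases of the site with the most reads that are shown above contained no run of 3 C. Of the other members of family 1, the neuronal KIF5A had 14 reads in the KRT19 KO cytoplasm and KIF5C no cluster.

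KIF1B (chromosome 1, 10270628 to 10441661, plus strand) belongs to family 3 and carries mitochondria and synaptic vesicle precursors by way of different splice forms. All of its 3′UTR clusters lay between 94.2 and 97.9 kb from the start of the gene, which spans 171 kb, in UTR exons that end shorter transcripts inside the coding span of the longer ones. None lay in the 3′UTR at the far end of the gene. These clusters held 340, 856 and 52 reads, with no cluster in the KRT19 KO nucleus, and in the cytoplasm the KRT19 KO share was 2.25 times (1.98 to 2.56) the parental share. The intron reads of KIF1B moved the other way, with 155 and 107 in the cytoplasm, a ratio of 0.617 (0.477 to 0.794), and 233 and 407 in the nucleus, a ratio of 1.90 (1.61 to 2.24). Over all genes the cytoplasmic ratios were likewise 1.498 for 3′UTR reads and 0.544 for intron reads, whereas the nuclear intron ratio was 0.891. The main site, at 10366472 to 10366507, held 30.4% of all KIF1B reads.

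**Figure D3:**
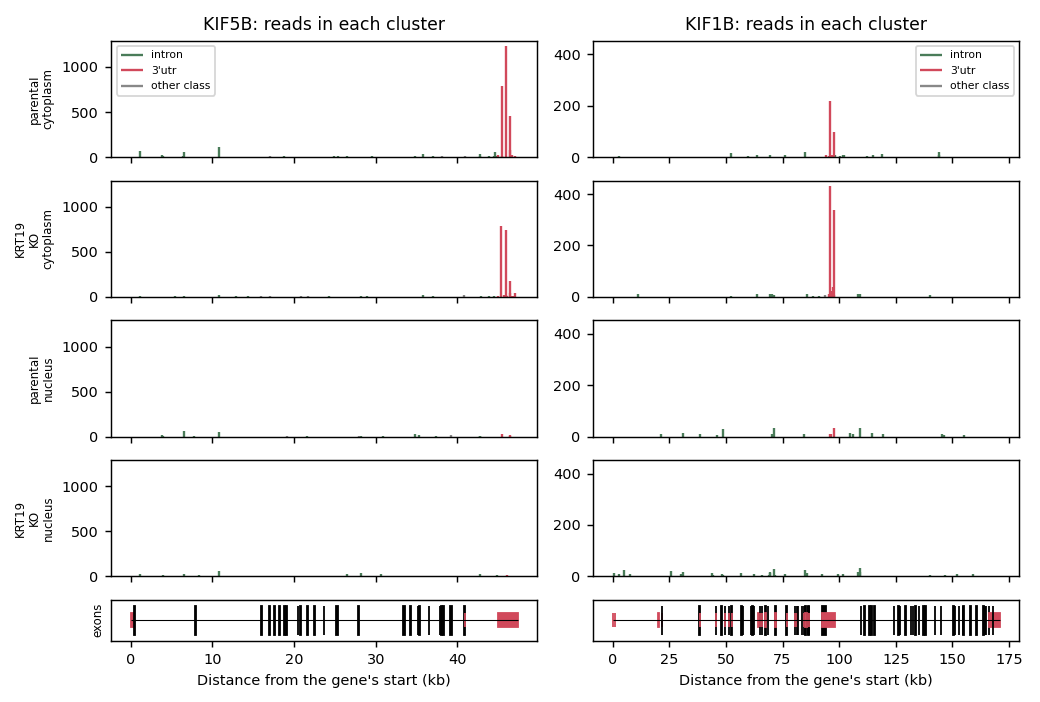
Reads in each cluster of KIF5B (left) and KIF1B (right) against the distance from the gene's start in kb, with 1 panel per library on a common scale per gene, and below them the coding exons (black, tall) and UTR exons (red, low) of all GENCODE transcripts. The red bars of KIF5B near the end of the gene reach 1230 reads in the parental and 782 reads in the KRT19 KO cytoplasmic panel, and those of KIF1B stand between 94.2 and 97.9 kb, far from its end at 171 kb.

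The heterotrimeric kinesin-2 motor moves cargo along cilia and in the cytoplasm. Its subunit KIF3A had 329 and 253 3′UTR reads in the cytoplasm, no 3′UTR cluster in the parental nucleus and 7 reads in the KRT19 KO nucleus. KIF3B, the partner of KIF3A, had 130, 118, 20 and 50 3′UTR reads in 20 clusters, the largest number after the 24 of KIF5B. KIF3C, an alternative partner of KIF3A, had 16, 110, 18 and 29, so that the KRT19 KO cytoplasm was the highest library, at 6.14 times (3.62 to 11.1) the share of the parental cytoplasm. KIF17, a homodimeric member, had 15 reads in the parental cytoplasm only.

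Among the other members of family 3, KIF1C, which moves dense core vesicles and integrins, had 39, 467, 54 and 20 reads. The KRT19 KO cytoplasm was far above the other libraries. Of its 467 reads, 356 lay in the 3′UTR and 111 in coding sequence, compared with 23 and 16 in the parental cytoplasm, and neither cytoplasmic library held an intron cluster of the gene. The 3′UTR site at 4929728 to 4929774 on chromosome 17 had 225 reads in the KRT19 KO cytoplasm, 5 in the KRT19 KO nucleus and no cluster in parental cells. KIF13A, a motor of recycling endosomes, was the opposite case, with 483, 571, 555 and 660 reads and no 3′UTR cluster. Of these reads 73, 175, 14 and 22 were called intronic by the authors but lay in UTR exons of GENCODE transcripts inside the coding span. KIF13B had 142, 26, 159 and 42 reads and KIF16B, an early endosome motor, 208, 106, 224 and 256. KIF14, which acts in cytokinesis, had 337, 324, 456 and 304 reads, highest in the parental nucleus, and its 3′UTR held 45, 58 and 42 reads, with no cluster in the parental nucleus.

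Family 4 holds chromokinesins and inhibitors of microtubule growth. KIF21A had 845, 503, 545 and 490 reads in 155 clusters, of which 2 lay in the 3′UTR. Of its reads called intronic by the authors, 58, 73, 8 and 36 lay in UTR exons of GENCODE transcripts inside the coding span. A further 64 and 27 in the nuclei lay in other exons. KIF4A, a chromokinesin that acts at the central spindle, had 537, 266, 487 and 300 reads and no 3′UTR cluster, and both KRT19 KO libraries were below both parental ones. Its coding reads, 5 and 7 in the cytoplasmic libraries, are uncertain because KIF4B is a near copy of the coding sequence. The ciliary kinesins KIF7 and KIF27 had 29, 10, 86 and 19 and 127, 177, 164 and 37 reads. KIF7 was highest in the parental nucleus and KIF27 lowest in the KRT19 KO nucleus. An intron site of KIF27, at 86505354 to 86505385 on chromosome 9, had 86, 118 and 60 reads and no cluster in the KRT19 KO nucleus.

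Most mitotic kinesins carried their reads mainly in introns. KIF18A, which dampens the movement of chromosomes at metaphase, had the most clusters of all kinesins, 206, with 1220, 1881, 932 and 669 reads. Its intron reads were 806, 1310, 901 and 669, and its 3′UTR reads 395, 543 and 26, with no 3′UTR cluster in the KRT19 KO nucleus. The intron site shown above had 288, 76 and 73 reads in the other libraries and no cluster in the parental cytoplasm. The 3′UTR site at 28042662 to 28042695 on chromosome 11 had 347 and 447 reads in the cytoplasmic libraries and none in the nuclear ones. KIF18B, which controls the length of astral microtubules, had 752, 409, 1266 and 527 reads and no 3′UTR cluster. Both intron sites of KIF18B shown above were found in all 4 libraries, with 185, 68, 344 and 95 and with 78, 56, 220 and 78 reads, and were highest in the parental nucleus. A further intron site, at 43016950 to 43016988 on chromosome 17, had 361 reads in the parental nucleus and no cluster in the other libraries. KIF11, the motor that pushes spindle poles apart, had 718, 604, 851 and 608 reads. Its 3′UTR site shown above had 227, 193, 83 and 52 reads, and KIF11 had 3 sites in all 4 libraries.

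In family 6, which acts in cytokinesis, KIF20B had 482, 512, 544 and 641 reads, including a coding site at 91528611 to 91528645 on chromosome 10 where 33 parental and 146 KRT19 KO cytoplasmic reads lay. KIF23 had 383, 357, 243 and 255 reads, and KIF20A 86, 69, 32 and 15. KIF15, which backs up KIF11 at the spindle, had 148, 69, 325 and 296 reads, and the chromokinesin KIF22 had 27, 28, 128 and 111. Both were low in the cytoplasmic libraries, and neither had a 3′UTR cluster. KIF22 had 27, 22, 128 and 111 reads called intronic by the authors, of which many lay in exons of GENCODE transcripts. In the nuclei 53 and 35 lay in UTR exons inside the coding span, and 14 and 76 in other exons. In the cytoplasm 15 and 15 lay in other exons, and 12 of the parental reads in coding sequence.

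Family 13 kinesins remove tubulin from microtubule ends. KIF2A had 681, 534, 553 and 486 reads, and no cluster of it was classed as 3′UTR by the authors. However, 20 clusters that carried the class processed_transcript, with 160, 256, 15 and 22 reads, lay in its 3′UTR by GENCODE, so KIF2A followed the pattern of 3′UTR reads in the cytoplasm. Its intron reads were 498, 278, 538 and 455, and the intron site shown above was found in all 4 libraries, with 133, 55, 94 and 68 reads. KIF2C, which corrects wrong attachments of chromosomes, had 34, 23, 350 and 140 reads and was low in both cytoplasmic libraries. KIF24, a centriolar kinesin, had 113, 376, 358 and 365 reads, and its parental cytoplasm was the lowest library. In the families 9 and 11, KIF6 had 35, 12, 52 and 26 reads and KIF26B 7, 6, 53 and 45, all in introns. KIF9 had 13 reads in the KRT19 KO cytoplasm and 7 in the parental nucleus.

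To compare fractions, the share of a gene's reads in the cytoplasmic library was divided by its share in the nuclear library of the same cells, for genes with at least 100 reads in the pair. Each library entered 2 of the comparisons made here, so these are not independent of each other. In parental cells 26 kinesins had enough reads. Of these, 4 were at least 2-fold higher in the cytoplasm, a level that 19.1% of the 7766 genes compared passed, and 9 were at least 2-fold lower, against 31.3% of all genes. KIFC1 and KIFC3, without a nuclear cluster, were among the 4, and without them 2 of 24 (8.33%) were higher and 9 (37.5%) lower. In KRT19 KO cells 22 kinesins had enough reads, with 4 higher against 26.1% of 7688 genes and 9 lower against 38% of them. With both genes included, the shares of kinesins were 15.4% and 34.6% in parental and 18.2% and 40.9% in KRT19 KO cells. The median ratio was 0.580 (0.567 without KIFC1 and KIFC3) and 0.538 for kinesins and 0.714 and 0.716 for all genes.

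KIF5B and KIF3A were higher in the cytoplasm of both cell lines. KIF5B was at 6.04 (5.398 to 6.781) and 3.26 (2.90 to 3.67), and KIF3A at 4.22 (3.18 to 5.67) and 2.28 (1.746 to 3). KIF1C was at 12.2 (7.82 to 20.2) in KRT19 KO cells, and had too few reads for the comparison in parental cells. KIF2C, KIF15, KIF18B and KIF22 were lower in both cell lines, among the 21 kinesins with enough reads in both. How many of all genes were higher or lower in both cell lines was not counted. KIF2C was lowest, at 0.0619 (0.0422 to 0.0881) and 0.0860 (0.0528 to 0.134). KIF22 was at 0.134 and 0.132, KIF15 at 0.290 and 0.122, and KIF18B at 0.379 and 0.406. KIF14, KIF24 and KIF3C were lower in parental cells only, as was KIF7, which had too few reads for the comparison in KRT19 KO cells. Conversely, KIF3B, KIF4A, KIF13A, KIF16B and KIF20B were lower in KRT19 KO cells only, and the difference between the cell lines was not tested. KIF27 was 0.494 (0.388 to 0.626) in parental cells and 2.50 (1.75 to 3.67) in KRT19 KO cells. By unique reads the value in KRT19 KO cells was 1.79 (0.894 to 4.07).

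**Figure D4:**
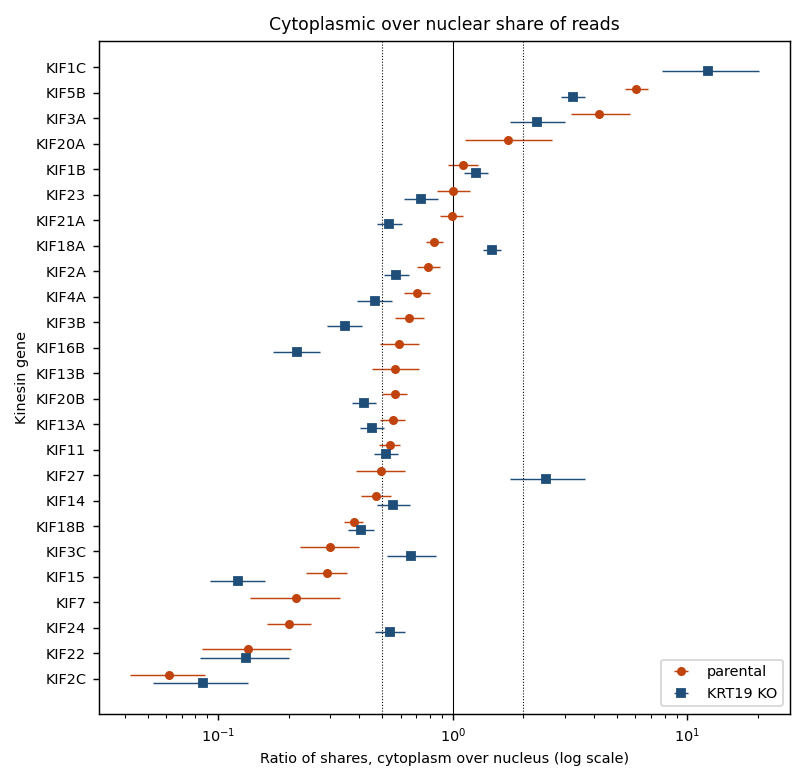
Ratio of the share of reads in the cytoplasm to that in the nucleus (log scale) for kinesins with at least 100 reads in the pair, without KIFC1 and KIFC3, in parental (circles) and KRT19 KO cells (squares), with 95% counting intervals as bars and dotted lines at 0.5 and 2. KIF5B and KIF3A lie right of the upper line and KIF2C, KIF15, KIF18B and KIF22 left of the lower line in both, and the points of KIF27 lie on opposite sides.

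The comparison of KRT19 KO with parental cells asked which kinesins were less or more represented among HNRNPK-bound RNA without keratin 19. In the cytoplasm 24 kinesins had enough reads, of which 2 were at least 2-fold higher in KRT19 KO cells, against 19.6% of 7783 genes, and 7 were lower, against 20.2%. The kinesin shares were 8.33% and 29.2%. Without KIFC1 and KIFC3, which were among the 7, 5 of 22 were lower, and this share of 22.7% lay near that of all genes. The median ratio was 0.714 for kinesins, 0.734 without these genes and 0.957 for all genes. In the nucleus none of 23 kinesins was higher, against 11.2% of 7349 genes, and 5 were lower, which was 21.7% against 15.7%. The median ratios were 0.946 and 0.928. Counts that small are moved by a few genes, and no test was possible with 1 library per condition.

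In the cytoplasm KIF1C was at 10.7 (7.71 to 15.2) and KIF24 at 2.97 (2.402 to 3.7). Lower were KIF13B at 0.164 (0.103 to 0.250), KIF15 at 0.416, KIF4A at 0.442, KIF16B at 0.455 and KIF18B at 0.486 (0.430 to 0.549). In the nucleus the lower genes were KIF7 at 0.240, KIF27 at 0.245, KIF13B at 0.287 (0.199 to 0.406), KIF2C at 0.435 and KIF18B at 0.453 (0.408 to 0.502). The reads of the genes that were lower in the cytoplasm were mostly intronic, and cytoplasmic intron reads were at 0.630 (0.608 to 0.651) for kinesins and 0.544 for all genes, so that values near 0.5 were close to the ratio of all intron reads. In the nucleus the intron ratios were 0.844 and 0.891. KIF13B and KIF18B were lower in both fractions, among the 20 kinesins with enough reads in both. The matching count over all genes was not made. Just outside the limits in the cytoplasm lay KIF3B at 0.502 and KIF3C at 1.97. KIF16B was at 1.24 (1.04 to 1.49) in the nucleus, but at 1.08 (0.662 to 1.77) by unique reads. KIF18A was at 1.38 (1.28 to 1.48) in the cytoplasm and 0.781 (0.706 to 0.863) in the nucleus. KIF5B was at 0.579 in the cytoplasm and 1.08 in the nucleus, KIF21A at 0.532 and 0.978, and KIF2A at 0.700 and 0.956.

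**Figure D5:**
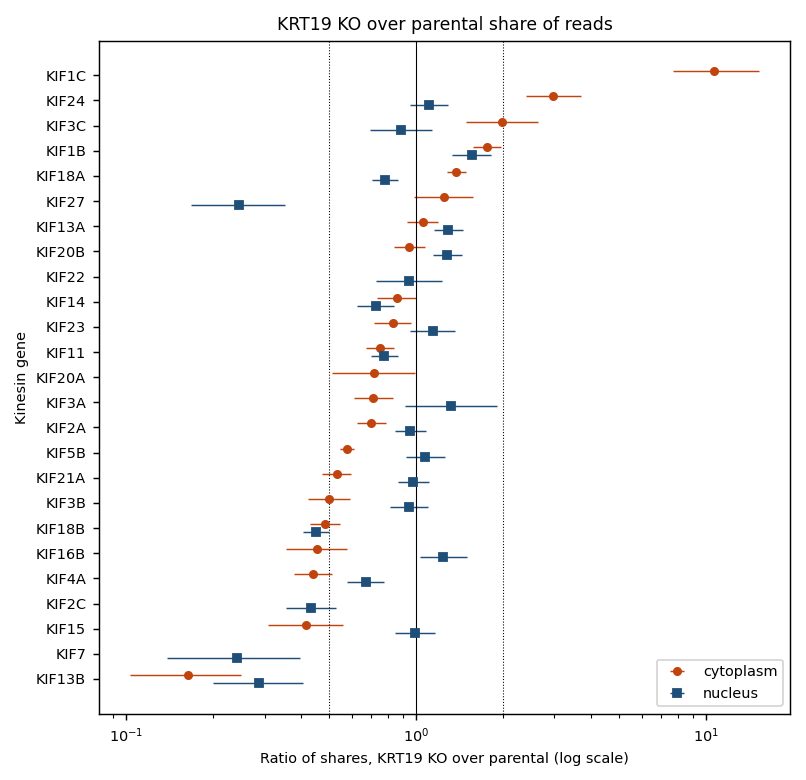
Ratio of the share of reads in KRT19 KO cells to that in parental cells (log scale) for kinesins with at least 100 reads in the pair, without KIFC1 and KIFC3, in the cytoplasm (circles) and the nucleus (squares), with 95% counting intervals as bars and dotted lines at 0.5 and 2. KIF1C, at 10.7, and KIF24, at 2.97, are the points right of the upper line, and KIF13B and KIF18B lie left of the lower line in both fractions.

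Overlapping clusters were joined across libraries into 1521 kinesin sites. Most of them, 1153 (75.8%), were found in 1 library, 255 in 2, 87 in 3 and 26 in all 4. Of the parental cytoplasmic clusters, 24.4% (21.1 to 28.1) overlapped a cluster of the KRT19 KO cytoplasm and 18.3% (15.3 to 21.7) a cluster of the parental nucleus, against 26.4% and 22.7% for the clusters of all genes. Without KIFC1 and KIFC3 the kinesin values were 25.8% and 19.3%. Sharing followed depth. Parental cytoplasmic kinesin clusters with at least 50 reads overlapped one of the KRT19 KO cytoplasm in 72.5% of cases (57.2 to 83.9), whereas those with 5 to 9 reads did so in 10.1% (7.13 to 14.1), and the values for all genes were 73.2% and 11.1%. The median number of reads was 9 for sites in 1 library and 124 for those in all 4.

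The 26 sites in all libraries lay in 13 genes. KIF2A, KIF11 and KIF24 had 3 each, KIF5B, KIF4A, KIF13A, KIF18A, KIF18B, KIF20B and KIF23 had 2 each, and KIF3B, KIF3C and KIF14 had 1 each. Of them 24 lay in introns and 2 in 3′UTRs. Of the 64 sites found in both cytoplasmic libraries and in neither nuclear one, 14 lay in 3′UTRs, 44 in introns and 5 in coding sequence. Of the 41 sites found in both nuclear libraries only, 40 lay in introns, 1 in coding sequence and none in a 3′UTR. Sites of all genes were not counted in this way. Over all genes, too, 3′UTR clusters made up a larger share of the cytoplasmic than of the nuclear libraries, as given above.

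Within introns, kinesin clusters lay closer to exons than those of all genes. The median distance to the nearest exon was 1509, 1592, 1614 and 1303 nt, against 2959, 2502, 2794 and 2658 nt, and it depends on the length of the introns, which was not compared here. Clusters within 100 nt before a 3′ splice site, where the polypyrimidine tract lies, made up 3.27% (1.99 to 5.32), 1.497% (0.641 to 3.46), 3.28% (2.03 to 5.26) and 3.72% (2.30 to 5.96) of the kinesin intron clusters and 1.53%, 1.74%, 2.29% and 2.53% of those of all genes. The interval excluded the value of all genes only in the parental cytoplasm. The distances and shares were not recomputed without KIFC1 and KIFC3, whose clusters lay in that library only.

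The base composition of the kinesin clusters was near that of all clusters, with somewhat less C in every library. They held 37.0%, 35.9%, 35.5% and 36.1% U, 32.0%, 34.2%, 31.6% and 30.9% A, and 24.4%, 24.6%, 25.3% and 27.4% C, whereas all clusters held 33.9% to 36.0% U, 29.5% to 32.8% A and 25.8% to 28.9% C. The run CCC, searched on the reported strand only, was found in 37.3% (33.4 to 41.3), 39.3% (34.8 to 43.9), 39.9% (35.9 to 44.1) and 42.8% (38.5 to 47.2) of kinesin clusters and in 40.0%, 40.8%, 45.4% and 45.1% of all clusters. The kinesin share was lower in each library. With KIFC1 and KIFC3 included, its interval excluded that of all clusters only in the parental nucleus. Without these genes the share in the parental cytoplasm was 35.6%, further below the 40.0% of all clusters, and no interval was computed for it. In kinesin introns CCC was found in 39.9%, 41.2%, 41.0% and 43.6%, against 40.6%, 41.3%, 45.15% and 44.2% of all intron clusters. In kinesin 3′UTRs it was found in 22.2% (13.2 to 34.94) of 54 clusters in the parental cytoplasm, and the other libraries had 32.1% (21.1 to 45.5) of 53, 28.6% (11.7 to 54.7) of 14 and 28.6% (13.81 to 49.96) of 21. All 3′UTR clusters held it in 34.85%, 36.5%, 46.3% and 45.9%. The kinesin values were lower in all 4 libraries, but each interval reached the value of all genes. The share of kinesin reads with a T-to-C change was 62.2%, 62.1%, 75.0% and 79.4%, and that of all reads was 66.4%, 59.6%, 72.8% and 76.7%.

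Proteins that work with kinesins were counted in the same way. Between fractions, 31.3% of all genes were lower and 19.1% higher in the cytoplasm of parental cells, and 38% and 26.1% in that of KRT19 KO cells. Lists this short are read as counts only. Of 8 symbols listed as light chains and accessory proteins, 6 had a cluster and all 6 had enough reads. The list held KIF1BP and KIAA1279, which are names of the same gene, and CENPE, which is itself a motor. In parental cells KLC1, KLC2 and KLC4, which are kinesin light chains, were lower in the cytoplasm, and in KRT19 KO cells KLC1, KLC4 and KIFAP3, the accessory subunit of kinesin-2. KLC2 had 15, 162, 120 and 22 reads, so that its ratio between fractions was 0.0796 for the parental cells and 3.85 for the KRT19 KO cells. The difference was not tested. Of 15 cargo adaptors 12 had a cluster and 8 had enough reads between fractions. TRAK1, which links KIF5B to mitochondria, MAPK8IP3 and PLEKHM2 were lower in the cytoplasm of both cell lines and none was higher. All 15 dynein and dynactin genes, which form the motor of the opposite direction, had a cluster. In the cytoplasm 8 of 13 were lower and 2 higher for parental cells, and 5 of 12 lower and 2 higher for KRT19 KO cells.

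Between KRT19 KO and parental cells, 19.6% of all genes were higher and 20.2% lower in the cytoplasm, and 11.2% and 15.7% in the nucleus. Of the light chains and accessory proteins 2 of 6 were higher and 1 lower in the cytoplasm, and 1 was higher and 2 lower in the nucleus. KLC4 was higher in both, at 4.13 and 5.96, whereas KLC2 was at 9.64 in the cytoplasm and 0.199 in the nucleus. KIFAP3 was at 0.479 in the cytoplasm, and the spindle motor CENPE at 0.404 in the nucleus. Among the cargo adaptors FEZ2 was lower in the cytoplasm, 1 of 7, and PLEKHM2 higher in the nucleus, 1 of 8. Of 13 dynein and dynactin genes none was higher and DYNC2H1, DYNLL1 and DCTN1 were lower in the cytoplasm. In the nucleus DCTN6, at 6.13, and DCTN4, at 2.67, were higher, and DYNLL2, at 0.166, and DYNC2H1, at 0.453, were lower.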

How the data were processed

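PAR-CLIP clusters of 4 libraries were used, 1 per condition as given by the labels. According to the study's methods, the authors split the libraries with Bcl2fastq and cutadapt, collapsed identical sequences while adapters and UMIs (random molecular tags) were still attached, aligned to hg19 and called clusters with PARalyzer in PARpipe. Sequencing errors in a tag can leave copies, and how many was not tested. The authors deposited raw counts per cluster (all reads, unique reads, T-to-C reads and converted positions), with position, sequence, class and gene name. The deposited fraction, score and log10 columns were not used. All 2029 kinesin cluster sequences were equal to GRCh37 at their coordinates. Gene spans and exons came from GENCODE v44lift37.

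Reads were summed per gene and library and divided by the library's total of 3252800 to 6216226 cluster reads. Ratios of these shares were formed for genes with at least 100 reads in a pair, and at least 2-fold was counted. Sites were joined where clusters of the same strand overlapped by at least 1 nt. Named genes were the 10 kinesins with the most clusters, the 6 with the most 3′UTR clusters and those at least 2-fold apart in a pair, and other members are given for completeness. Sequences shown are the 4 intron and 4 3′UTR sites with the most reads in at least 3 libraries, outside chromosome 8. Members, families and lists were chosen with earlier results of these data known. Alternatives were at least 10 reads or 2 conversion locations per cluster, unique reads, other denominators, 50 reads in a pair, weighting by reads and a 10 nt overlap. Those without KIFC1 and KIFC3 or KIF5B, and with GENCODE 3′UTRs, were chosen after seeing the data. The ratio, overlap and interval functions were tested on simulated data. Python 3.11.15, pandas 2.3.3, numpy 2.4.6, scipy 1.17.1, pysam 0.24.0 and matplotlib 3.10.9 were used.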

Additional observations from a re-analysis of the deposited data

Results flagged for a closer look

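Several kinesins had a ratio above 1 in 1 comparison and below 1 in its counterpart, with neither counting interval holding 1. How many of all genes met this rule was not counted. Between cytoplasm and nucleus, KIF27 was at 0.494 in parental and 2.50 in KRT19 KO cells, and KIF18A at 0.834 and 1.47. The median ratio of all genes was 0.714 and 0.716 there, so KIF18A lay above it in both cell lines. Between KRT19 KO and parental cells, KIF16B was at 0.455 in the cytoplasm and 1.24 in the nucleus (1.08, with an interval of 0.662 to 1.77, by unique reads), and KIF18A at 1.38 and 0.781. The values of KIF18A in both contrasts come from the same 4 libraries and count once. By unique reads the interval of KIF27 in KRT19 KO cells, 0.894 to 4.07, also held 1. With 1 library per condition these differences were not tested.

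Clusters inside kinesin genes, on the gene's strand but without its name, held 271, 165, 114 and 126 reads in the parental cytoplasm, KRT19 KO cytoplasm, parental nucleus and KRT19 KO nucleus. They numbered 15, 7, 8 and 14, most of them without any gene name, and TMEM42, which lies within the span of KIF15, was the gene named most often. The pseudogene KIF28P, which had no cluster under its own name, held such clusters in both KRT19 KO libraries, with 9 reads in the cytoplasm and 7 in the nucleus without a gene name. No control library was used here to set these values against.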

How the results depend on the processing

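No paired analysis was possible because each condition had 1 library and the labels carry no replicate numbers, and for the same reason no replicate could be left out. Of 156 recomputed values of 44 results, 107 stayed within the counting interval of the reported value, or within 1.5 times for counts and medians, 48 did not, and 1 changed direction. Values are in the order parental cytoplasm, KRT19 KO cytoplasm, parental nucleus, KRT19 KO nucleus unless named. The cause of the changes was not tested, except that stricter limits leave fewer clusters and genes. For counts of kinesins at least 2-fold apart, the matching share of all genes was computed for the main setting only.

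With clusters of at least 10 reads, kinesin clusters numbered 282, 224, 328 and 290, and the kinesin share of reads was 0.2244% and 0.1711% in the cytoplasmic libraries. In the KRT19 KO cytoplasm the intron share was then 72.77%, the 3′UTR share 19.64% and the CCC share 44.2%. The KRT19 KO cytoplasm had 4 of 23 kinesins at least 2-fold higher than the parental one, and 30.14% of parental cytoplasmic clusters were shared with it. With at least 2 conversion locations, clusters numbered 240, 283, 150 and 107 and the share of reads was 0.2224%, 0.1746%, 0.286% and 0.2195%. The 3′UTR share in the parental cytoplasm was 15.83%. The CCC share was 44.17%, 53.33% and 57.01% in the parental cytoplasm, parental nucleus and KRT19 KO nucleus. Of 23 kinesins with enough reads, 4 were higher and 4 lower in the KRT19 KO than in the parental cytoplasm. In the KRT19 KO nucleus 2 of 17 were lower than in the parental one. Sharing was 37.08% of parental with KRT19 KO cytoplasmic clusters and 15.9% of KRT19 KO cytoplasmic with nuclear ones.

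By unique reads, the share was 0.1732% and 0.2217% in the KRT19 KO cytoplasm and nucleus. Of the kinesins with enough reads, 4 of 17 in parental and 5 of 16 in KRT19 KO cells were lower in the cytoplasm. In the KRT19 KO nucleus 1 of 15 was lower than in the parental one. By unique reads 15 to 19 kinesins had enough reads in a pair, but KIF2C had enough in the nuclei and lay inside the limit, at 0.517. Without mitochondrial clusters and the largest cluster in the total, the share was 0.2486% and 0.1908% in the cytoplasmic libraries and 0.2423% in the KRT19 KO nucleus. Weighted by reads, introns made up 62.88% and 51.63% and 3′UTRs 33.6% and 41.6% in the cytoplasmic libraries. Without KIFC1 and KIFC3 the parental cytoplasmic share was 0.2156% and 2 kinesins were higher in the parental cytoplasm than in the nucleus. Without KIF5B, the kinesin 3′UTR ratios were 4.907 and 5.304 between fractions, 1.334 between nuclei, and 1.441 between cytoplasms, which turned the direction of 0.949. The 3′UTR share of transport kinesin reads was then 35.34%, 56.52% and 3.859% in the parental cytoplasm, KRT19 KO cytoplasm and parental nucleus. These last sets were chosen after seeing the data.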
